A study of Homo sapiens with 8 samples.

Results

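The U6 small nuclear RNA genes RNU6-1, RNU6-2, RNU6-7, RNU6-8 and RNU6-9 were examined through the accessible regions at their ends. Of 129536 peaks in a table of ATAC-seq counts, 6 lay within 1 kb of either end of a U6 gene, and these 6 peaks are described here. All 5 genes were overlapped by a peak. A sixth, smaller peak lay 720 bp beyond RNU6-8 and overlapped no U6 gene, and it is called the RNU6-8 flank peak. All 6 passed the filter on low counts, which kept 129487 peaks.

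U6 RNA pairs with the U4 and U2 RNAs in the spliceosome and helps to form its catalytic centre. Unlike the other major spliceosomal RNAs, which RNA polymerase II makes, U6 is made by RNA polymerase III. Its promoter lies upstream of the gene and combines a distal element that binds the octamer factor POU2F1, a proximal element bound by the SNAP complex (SNAPc), and a TATA box.

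HEK293 is a human embryonic kidney line, and the study asked how hyperosmotic stress changes its chromatin. The labels give the genotype of every library as eGFP-YAP, YAP being a transcriptional coactivator fused here to green fluorescent protein, whereas the titles give HEK293 alone. The design text has the cells without serum for 1 h before treatment. The 4 vehicle libraries came from cells given no sorbitol. The 4 sorbitol libraries came from cells exposed for 1 h to 200 mM sorbitol, a sugar alcohol that makes the medium hyperosmotic. Vehicle libraries are labelled 0 h and sorbitol libraries 1 h, so treatment time and sorbitol cannot be told apart. Each library was made from 50000 cells by Omni-ATAC, in which a transposase inserts adapters into open chromatin. The promoter that drives eGFP-YAP, and whether the line is 1 clone, are not given in the sources used here. Nor do the sources say that replicates were separate cultures, so p-values measure only the spread between these libraries.

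Library totals ran from 11522266 to 19831471 counts, and each of the 4 sorbitol totals was below each of the 4 vehicle totals. Of the HEK293 markers, VIM (vehicle mean 95.6 CPM, counts scaled to a common library total) and CDH2 (122 CPM) had strong peaks at their ends, EYA1 (2.17 CPM) and NEFM (7.93 CPM) weak ones, and PAX2 none. Among blood, liver and basal epithelial markers, PTPRC had a peak of 1.19 CPM, and CD3E, ALB and KRT5 had none. Vehicle replicate 4 and sorbitol replicate 4 lay at opposite ends of the second principal component (-61.7 and 66.3), which held 11.6% of the variance. They also had the highest and the lowest relative level over 477 peaks on unplaced or unlocalized contigs (0.35 and -0.32 on the log2 scale). U6 values without both libraries are given beside the results.

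The genes occupy 4 loci, each gene being 107 bp long in the RefSeq table of GRCh38.p14. RNU6-7 (gene ID 101954275, chr14:32202045-32202151) and RNU6-8 (101954278, chr14:32203163-32203269) stand 1012 bp apart and form 1 locus. RNU6-1 (26827) lies at chr15:67839939-67840045, 1060 bp from the end of the long noncoding RNA gene SKOR1-AS1. RNU6-9 (101954271, chr19:893484-893590) and RNU6-2 (103625684, chr19:1021522-1021628) lie on chromosome 19 with 127932 bp between them. Each of these neighbours a protein-coding gene: RNU6-9 lies 297 bp from MED16, a Mediator subunit, and RNU6-2 lies 399 bp from TMEM259, a membrane protein gene. The peaks at RNU6-9 and RNU6-2 overlap the ends of MED16 and TMEM259 as well, so their counts belong to both genes of each pair.

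Sequence between 2 of these U6 genes and their neighbours was at hand, because RefSeq promoter windows of MED16 and TMEM259 run toward them. Both windows lie inside the U6 peaks, and the 250 bases upstream of each neighbour are shown because they hold letters that match motifs known from U6 promoters. They are written 5′ to 3′ on the minus strand of GRCh38.p14, from RefSeq, with motif matches in capitals. The MED16 window is chr19:893188-893437 and stops 46 bases short of RNU6-9, and the TMEM259 window is chr19:1021124-1021373 and stops 148 bases short of RNU6-2. The strand of the U6 genes was not used here, so the windows are not placed upstream or downstream of RNU6-9 and RNU6-2.
MED16: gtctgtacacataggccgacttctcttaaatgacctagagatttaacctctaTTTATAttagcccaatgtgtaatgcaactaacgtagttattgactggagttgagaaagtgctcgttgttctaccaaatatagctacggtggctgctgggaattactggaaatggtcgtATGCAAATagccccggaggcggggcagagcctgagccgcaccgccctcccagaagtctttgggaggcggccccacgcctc
TMEM259: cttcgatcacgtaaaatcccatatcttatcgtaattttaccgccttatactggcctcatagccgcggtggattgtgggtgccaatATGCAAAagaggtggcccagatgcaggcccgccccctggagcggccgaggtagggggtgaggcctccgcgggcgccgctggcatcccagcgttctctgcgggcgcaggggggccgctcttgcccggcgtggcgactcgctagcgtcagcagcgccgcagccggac

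The MED16 window held the octamer ATGCAAAT, with 216 bases between it and RNU6-9, and TTTATA, with 98 bases between. Of 35116 promoter windows of RefSeq genes, with the same 250 bases searched on both strands, 1.63% held ATGCAAAT and 10.7% held TTTATA. The TMEM259 window held the first 7 letters of the octamer, ATGCAAA, with 233 bases between them and RNU6-2. That shorter motif, which the octamer contains, was added after the window had been seen, and 3.94% of windows held it. A proximal-element-like pattern, found in 0.732% of windows, and a ZNF143-like one, found in 0.709%, were in neither of the pair. The 46 bases next to RNU6-9 and the 148 next to RNU6-2 lie outside the windows. They were not searched, so a pattern close to either gene would have been missed. These are matches of letters in a window, not measured binding. The promoter table held none of the 5 U6 genes themselves.

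Counts were compared as CPM with TMM library factors (a trimmed mean of log ratios between libraries), and tested with the edgeR quasi-likelihood test over all 129487 peaks. A peak was called changed at a Benjamini-Hochberg adjusted p under 0.05. After sorbitol, 4 of the 6 U6 peaks were lower and 0 were higher in edgeR, against 13.1% lower and 16.0% higher over all tested peaks. At an unadjusted p under 0.05 the counts were also 4 and 0, and the DESeq2 Wald test called 3 lower and 0 higher. U6 peaks sit at gene ends, and of the 25201 peaks within 1 kb of an annotated gene end, 32.8% were lower and 8.75% higher. Gene-end peaks were lower more often where they were strong. Of those in the top decile of mean CPM, where RNU6-1, RNU6-2, RNU6-7 and RNU6-8 fall, 49.3% were lower. The share was 41.1% in the next decile, which holds RNU6-9, and 17.2% in the sixth from the bottom, which holds the flank peak. The U6 median log2 fold change was -0.31, beside -0.17 for gene-end peaks and 0.01 for all tested peaks. For gene-end peaks of the top decile, and for those of the next, the median was -0.21.

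RNU6-1 is the U6 gene whose promoter is widely used to express guide and hairpin RNAs. Its peak (chr15:67839585-67841451, 1867 bp) measured 41.2, 35.6, 36.7 and 38.4 CPM in vehicle replicates 1 to 4, and 31.1, 31.3, 29.1 and 32.2 CPM in sorbitol replicates 1 to 4. Every sorbitol library was below every vehicle library. The mean fell by 18.6%, from 38.0 ± 2.4 to 30.9 ± 1.3 CPM (SD, n = 4 each). The edgeR log2 fold change was -0.29 (SE 0.08, 95% confidence interval -0.46 to -0.13, adjusted p = 0.00622), and it was -0.32 without vehicle replicate 4 and sorbitol replicate 4.

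RNU6-2 encodes the same RNA from chromosome 19. Its peak (chr19:1020985-1021979, 995 bp) measured 32.6, 31.0, 21.7 and 21.2 CPM in vehicle replicates 1 to 4, and 19.7, 19.1, 18.2 and 18.3 CPM in sorbitol replicates 1 to 4. The groups did not overlap, and the vehicle libraries formed a high pair and a low pair while the sorbitol libraries lay close together. The mean fell by 29.3%, from 26.6 ± 6.01 to 18.8 ± 0.688 CPM, with an edgeR log2 fold change of -0.50 (SE 0.11, 95% confidence interval -0.71 to -0.28, adjusted p = 0.000326). The split among vehicle libraries ran with the first number in the library names, which is 1 for replicates 1 and 2 of each group and 2 for replicates 3 and 4, and whose meaning is not given. Within the first number 1 the log2 fold change was -0.72, and within the first number 2 it was -0.23 (adjusted p = 0.315). The edgeR test of that difference gave 0.48 (SE 0.18, unadjusted p = 0.0103, adjusted p = 0.976), and 0 of 129487 peaks passed it in edgeR, beside 6337 at an unadjusted p under 0.05. Without vehicle replicate 4 and sorbitol replicate 4 the RNU6-2 log2 fold change was -0.59.

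RNU6-7 and RNU6-8 were read by separate peaks. The RNU6-7 peak (chr14:32201047-32202508, 1462 bp) measured 44.0, 36.9, 42.3 and 34.5 CPM in vehicle replicates 1 to 4, and 27.7, 35.3, 29.9 and 33.6 CPM in sorbitol replicates 1 to 4. Of the sorbitol libraries, 3 of 4 were below the lowest vehicle library, so the groups overlapped by 1 library. The mean fell by 19.8%, from 39.4 ± 4.43 to 31.6 ± 3.44 CPM, with an edgeR log2 fold change of -0.32 (SE 0.09, adjusted p = 0.00577), or -0.42 without vehicle replicate 4 and sorbitol replicate 4.

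RNU6-8 is the other gene of this chromosome 14 locus, and its peak was not called. Its peak (chr14:32203000-32203834, 835 bp) measured 22.4, 19.5, 18.7 and 16.6 CPM in vehicle replicates 1 to 4, and 21.2, 22.7, 15.7 and 21.2 CPM in sorbitol replicates 1 to 4. Both the highest and the lowest library were sorbitol libraries. Means were 19.3 ± 2.41 and 20.2 ± 3.07 CPM, and the edgeR log2 fold change was 0.07 (SE 0.10, 95% confidence interval -0.14 to 0.28, adjusted p = 0.655). The sign turned to -0.026 without vehicle replicate 4 and sorbitol replicate 4.

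The RNU6-8 flank peak (chr14:32203989-32204188, 200 bp) held 33 to 85 counts per library. It measured 4.15, 4.82, 4.39 and 4.31 CPM in vehicle replicates 1 to 4, and 4.08, 2.57, 3.18 and 2.61 CPM in sorbitol replicates 1 to 4. The groups did not overlap, with sorbitol replicate 1 just under the lowest vehicle library. The mean fell by 29.6% and the edgeR log2 fold change was -0.52 (SE 0.19, adjusted p = 0.034), a call lost under 14 of 22 other settings. Without vehicle replicate 4 and sorbitol replicate 4 it was -0.46 (edgeR adjusted p = 0.101). Summed over its 3 peaks, the RNU6-7 and RNU6-8 locus had means of 63.1 ± 6.40 and 55.0 ± 5.14 CPM and a log2 fold change of -0.20 (SE 0.08, edgeR adjusted p = 0.0637). Its call depended on single libraries, since the adjusted p was 0.0141 without vehicle replicate 4, 0.0427 without sorbitol replicate 2 and 0.0328 without sorbitol replicate 4.

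RNU6-9 had the fewest counts of the 5 genes. Its peak (chr19:892451-893735, 1285 bp) measured 16.1, 14.3, 12.2 and 12.1 CPM in vehicle replicates 1 to 4, and 11.7, 14.4, 10.2 and 10.2 CPM in sorbitol replicates 1 to 4. Sorbitol replicate 2 reached into the vehicle range and the other 3 lay below it. Means were 13.7 ± 1.91 and 11.6 ± 1.96 CPM, and the edgeR log2 fold change was -0.23 (SE 0.12, 95% confidence interval -0.47 to 0.01, adjusted p = 0.148). Without sorbitol replicate 2 it was -0.35 and passed the threshold (edgeR adjusted p = 0.0406). Without vehicle replicate 4 and sorbitol replicate 4 it was -0.23.

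**Figure D1:**
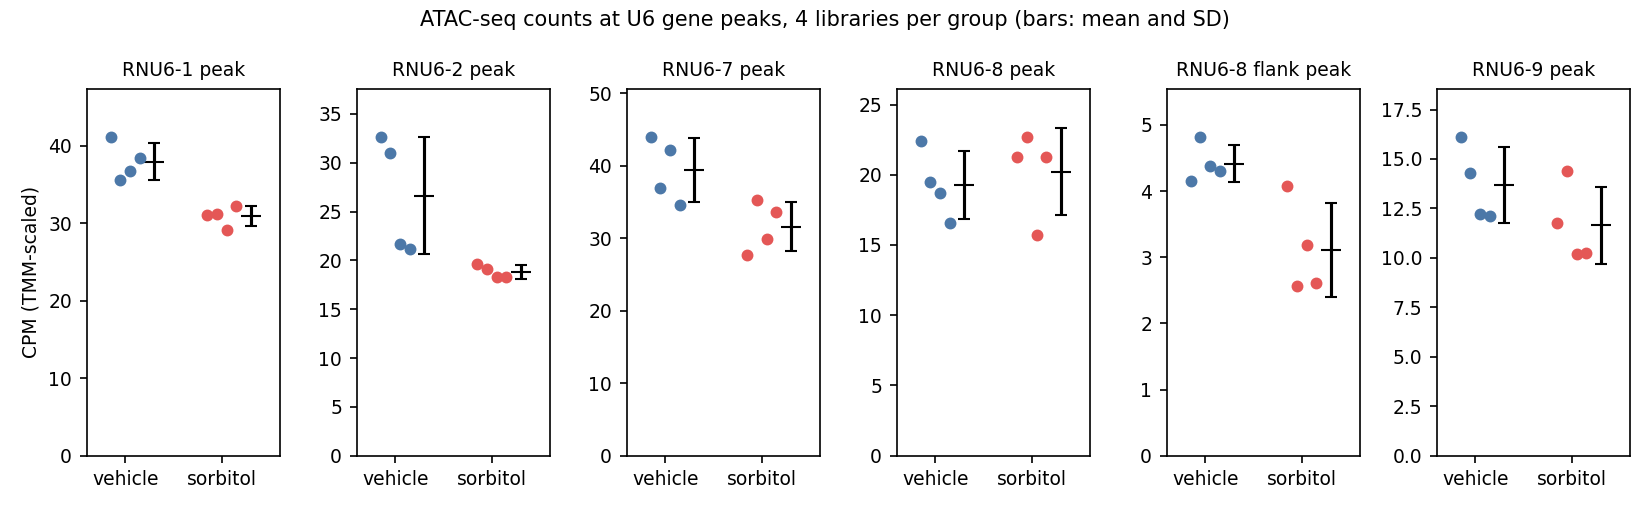
CPM of the 6 U6 peaks in each of the 4 vehicle and 4 sorbitol libraries (points), with group means and SD. Sorbitol libraries lie below all vehicle libraries at RNU6-1, RNU6-2 and the RNU6-8 flank peak, and the groups overlap at RNU6-7, RNU6-8 and RNU6-9.

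Thus 3 of 6 U6 peaks had sorbitol libraries wholly below vehicle libraries, against 12.6% of all tested peaks. That share was not computed for gene-end peaks of like strength. Of gene-end peaks in the top decile, which holds RNU6-1 and RNU6-2, 49.3% were called lower in edgeR. In the sixth decile, which holds the flank peak, 17.2% were. Of the 4 loci, RNU6-1 and RNU6-2 were called lower. The 6 peaks together held 2359, 2358, 2636 and 1858 raw counts in vehicle replicates 1 to 4, and 1387, 1612, 1271 and 1719 in sorbitol replicates 1 to 4. In CPM the sums were 160, 142, 136 and 127 in vehicle, and 116, 125, 106 and 118 in sorbitol. The highest sorbitol sum (125.3) was just below the lowest vehicle sum (127.1). The mean sum was 141 ± 14.1 CPM in vehicle and 116 ± 7.82 CPM in sorbitol, a change of -17.7% or -0.28 on the log2 scale, given with no test because the sum runs over chosen members.

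The order of the U6 genes was compared per kb of peak. In vehicle libraries RNU6-7 had 27.0 ± 3.03 CPM per kb, RNU6-2 26.8 ± 6.04, RNU6-8 23.1 ± 2.88, the flank peak 22.1 ± 1.43, RNU6-1 20.3 ± 1.30 and RNU6-9 10.6 ± 1.48. The ranges of mean ± SD overlapped between neighbours in that order, except between RNU6-1 and RNU6-9. In sorbitol libraries the order was RNU6-8 (24.2 ± 3.68 CPM per kb), RNU6-7 (21.6 ± 2.35), RNU6-2 (18.9 ± 0.691), RNU6-1 (16.6 ± 0.684), the flank peak (15.5 ± 3.53) and RNU6-9 (9.06 ± 1.53). RNU6-8 and RNU6-7 overlapped in mean ± SD, so the first place is not settled, and RNU6-9 was last in both groups.

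**Figure D2:**
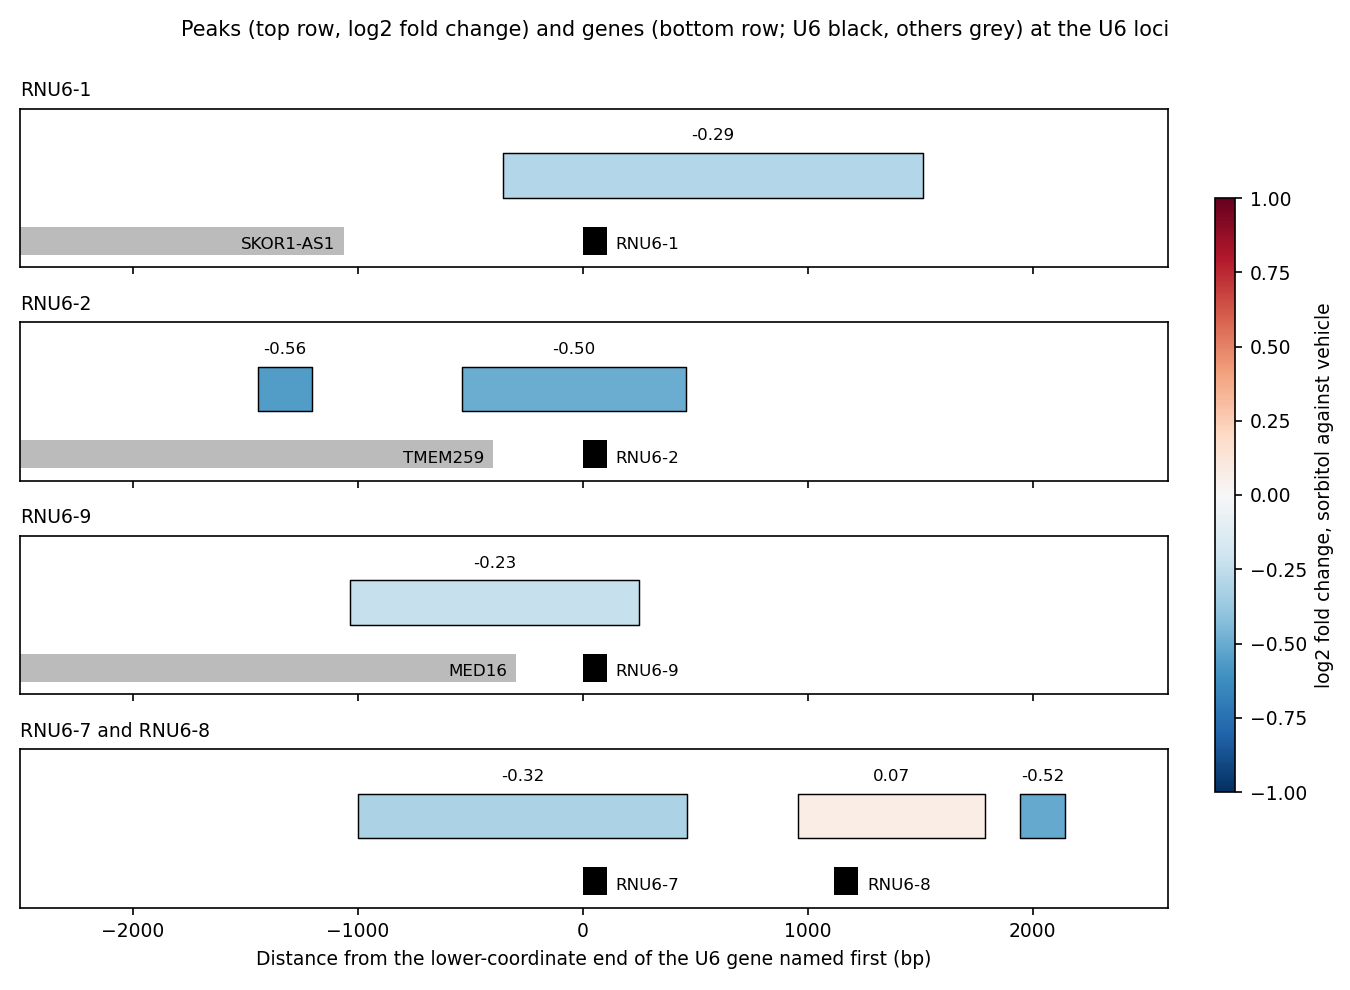
Map of the 4 U6 loci, with peaks in the top row coloured and labelled by edgeR log2 fold change and genes in the bottom row (U6 genes black, others grey), against distance in bp from the lower-coordinate end of the U6 gene named first. The RNU6-7 peak (-0.32, called lower) and the RNU6-8 peak (0.07, not called) stand side by side. The peaks at RNU6-2 and RNU6-9 reach over the ends of TMEM259 and MED16.

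Ratios within a library do not depend on its scaling, so the U6 genes were also set against each other and against RN7SK, the 7SK RNA gene, which has the same promoter type. The RNU6-7 to RNU6-8 ratio averaged 1.03 on the log2 scale in vehicle and 0.65 in sorbitol, a difference of -0.38 (SE 0.12, exact two-sided permutation p = 0.0571, n = 4 each). For RNU6-8 over RNU6-2 the ratio rose in every sorbitol library above every vehicle library, by 0.54 on the log2 scale (SE 0.15), and for RNU6-8 over RNU6-9 by 0.30 (SE 0.11). Each of these reached an exact permutation p of 0.0286, the smallest that 4 against 4 libraries can give. After adjustment over the 15 pairs, 0 passed 0.05 and the smallest exact permutation p was 0.214. With that smallest p a few pairs alone could not pass the adjustment, so the outcome says little about whether RNU6-8 differs from the other U6 genes.

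The nearest peaks outside the 1 kb rule lay 1204 to 36483 bp from the nearest U6 gene, and 1 of them was called. On the higher-coordinate side of RNU6-9, 6703 bp away, a peak fell from 7.05 ± 0.933 to 3.56 ± 0.490 CPM (log2 fold change -0.99, edgeR adjusted p = 6.63e-06). On the lower-coordinate side of RNU6-2, 1204 bp away at TMEM259, the log2 fold change was -0.56 (edgeR adjusted p = 0.0608). The other nearest peaks had edgeR adjusted p from 0.291 to 0.919.

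Other genes with the same promoter type, the type 3 RNA polymerase III genes, were read for comparison. Of 10 peaks at 8 such genes, 5 were lower, 1 was higher and 4 were not called, and their median change was -0.23 (log2). The share called lower is close to the 49.3% of top-decile gene-end peaks, and the median strength of these 10 peaks was also in the top decile. With gene-end factors 3 were lower and 3 higher, and with contig factors 0 were called in edgeR, with 3 lower and 0 higher at an unadjusted p under 0.05. RNU6ATAC, the U6 counterpart of the minor spliceosome, fell by 0.53 (SE 0.09, edgeR adjusted p = 4.11e-06). RMRP, the RNA of RNase MRP, fell by 0.43 (edgeR adjusted p = 2.24e-05), and RN7SK fell by 0.38 (edgeR adjusted p = 8.44e-05). RNY3, a Y RNA gene, rose by 0.33 (SE 0.08, edgeR adjusted p = 0.00239). Among the called U6 peaks, RNU6-2 (-0.50) and the flank peak (-0.52) lay between RNU6ATAC and RMRP, and RNU6-1 (-0.29) and RNU6-7 (-0.32) were smaller changes than all 3. The peaks of RNU6ATAC, RMRP and RN7SK also lie at the ends of other genes.

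The small nuclear RNA genes read by RNA polymerase II share SNAPc and the proximal element with U6 and had larger falls. All 19 peaks at 18 of these genes were lower, with a median of -1.06 and a range from -1.51 (RNU5D-1) to -0.41 (RNU4ATAC), so 1 of them overlapped the U6 range of -0.52 to 0.07. RNU1-2, a U1 gene, went from 163 ± 14.6 to 64.5 ± 3.08 CPM (log2 fold change -1.33, SE 0.08, edgeR adjusted p = 2.67e-19). These falls were known before the lists were drawn up and are not independent evidence here. Many of these genes, and the U6 genes, have near-identical copies, and how the authors counted reads that fit several places is not given in the sources used here.

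The U6 sum was 6.59 to 7.70% of the summed CPM at these RNA polymerase II genes in vehicle libraries and 11.1 to 12.5% in sorbitol libraries. Relative to that sum, RNU6-8 was 2.12-fold higher in sorbitol, RNU6-9 1.72-fold, RNU6-1 1.65-fold, RNU6-7 1.62-fold and RNU6-2 1.46-fold. For each of the 5 genes all sorbitol ratios exceeded all vehicle ratios. The 5 ratios share 1 denominator whose fall was already known, so they are given as a description with no test. Without replicate 4 of both groups the log2 differences were 1.06 for RNU6-8, 0.86 for RNU6-9, 0.79 for RNU6-1, 0.68 for RNU6-7 and 0.53 for RNU6-2. These ratios need no scaling between libraries, and their denominator fell further than U6 did.

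**Figure D3:**
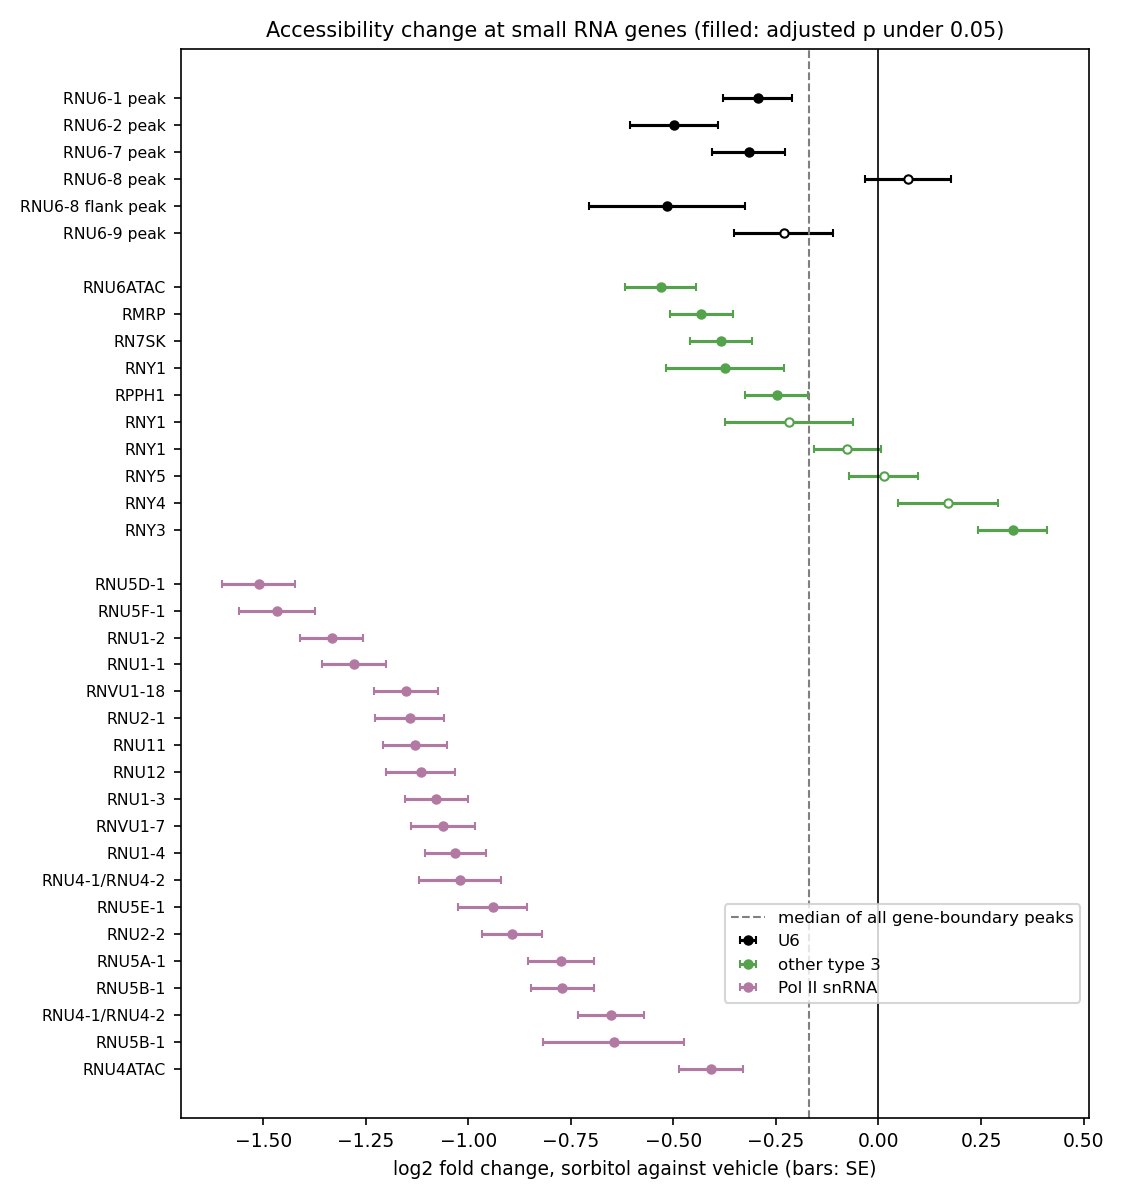
EdgeR log2 fold change of each peak (filled where called, with SE bars) at U6, other type 3 RNA polymerase III and RNA polymerase II small nuclear RNA genes, with a dashed line at the median of gene-end peaks (-0.17). The U6 peaks span -0.52 to 0.07 and the RNA polymerase II peaks -1.51 to -0.41.

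RefSeq also lists 1277 U6 pseudogenes, copies named RNU6- with a number and P. A peak lay within 1 kb of 103 of them (8.07%), whereas all 5 U6 genes had one. Of the 111 pseudogene peaks, 17 were lower, 16 were higher and 78 were not called, with a median of 0.02. These shares, 15.3% lower and 14.4% higher, are near the 13.1% and 16.0% of all tested peaks. The pseudogene peaks were also weaker, with a median strength in decile 5 against decile 10 for U6, and with gene-end factors 9 were lower and 23 higher. Where no other gene end lay within 1 kb, 9 of 94 were lower and 15 higher, with a median of 0.06, beside -0.31 for the U6 genes. RNU6-1138P, with no other gene end within 1 kb of its peak, fell by 0.82 (edgeR adjusted p = 1.58e-06). RNU6-702P rose by 1.26 (edgeR adjusted p = 6.37e-05), from 1.31 ± 0.118 to 3.17 ± 0.256 CPM.

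Genes of the U6 pathway were read through 3 lists. At the 10 genes for U6 promoter factors, 12 of 15 were lower and 0 were higher, the median being -0.37. SNAPC4, the largest SNAPc subunit, fell by 1.02 at one peak and by 0.65 at another, and SNAPC5 fell by 0.60 at a peak it shares with RPL4. At the 14 genes for RNA polymerase III subunits and its repressor MAF1, 12 of 21 were lower and 0 were higher, the median being -0.45. The POLR3E peak, which also touches a leucine tRNA gene, fell by 0.81, the MAF1 peak by 0.71 and the POLR3K peak by 0.64. The MAF1 peak also lies at an end of SHARPIN, and the POLR3K peak at an end of SNRNP25. At the 17 genes for U6 maturation and the U6 particle, 16 of 26 were lower and 0 were higher, the median being -0.28. At an unadjusted p under 0.05 edgeR gave 0, 1 and 0 higher peaks in the 3 lists. The DESeq2 Wald test called 12, 10 and 15 lower and none higher. PRPF31 fell by 0.97, at a peak it shares with TFPT, and PRPF3 fell by 0.77. Both are proteins of the particle that joins U4, U6 and U5. LSM4, of the ring on the U6 tail, fell by 1.24. The median peak of each list was in the top decile of strength, where 49.3% of gene-end peaks were lower.

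Gene-end peaks whose levels followed the U6 sum most closely over the 8 libraries, among 18872 with a mean of at least 50 counts, were named by Pearson correlation of log2 CPM. They were those of CYTH1 (r = 0.988), ARHGAP5 with ARHGAP5-AS1 (0.987), AK3P2 (0.983), GTF2F1 (0.982) and LOC124903167 (0.982). Like the U6 sum, each of these peaks was highest in vehicle replicate 1 and lowest in sorbitol replicate 3. At GTF2F1, a subunit of the general factor TFIIF, those values were 27.8 and 15.4 CPM. The 8 points share the libraries and their treatment difference, so the values are descriptive.

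The U6 calls depended on how libraries were scaled. With factors from gene-end peaks, which moved the median over all peaks from 0.01 to 0.19 (log2), 1 of 6 U6 peaks was lower, RNU6-2, and RNU6-1 had -0.12 (edgeR adjusted p = 0.228). With a loess offset that depends on abundance, 2 of 6 were lower, and RNU6-1 had -0.13 (edgeR adjusted p = 0.208). The RNU6-8 peak had 0.25 with gene-end factors (edgeR adjusted p = 0.0508) and 0.20 with loess (edgeR adjusted p = 0.115). Under each of these 2 scalings it was higher at an unadjusted p under 0.05 in edgeR. With factors from contig peaks, 0 of 6 were called (edgeR, smallest adjusted p = 0.0999), with 2 at an unadjusted p under 0.05, and RNU6-2 had -0.56. RNU6-1, RNU6-2, RNU6-7, RNU6-9 and the flank peak kept a negative sign and RNU6-8 a positive one under all 5 other scalings. The list medians of the 3 pathway lists, the other type 3 genes and the RNA polymerase II genes also stayed negative under these scalings, while the pseudogene median ranged from -0.04 to 0.19.

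**Figure D4:**
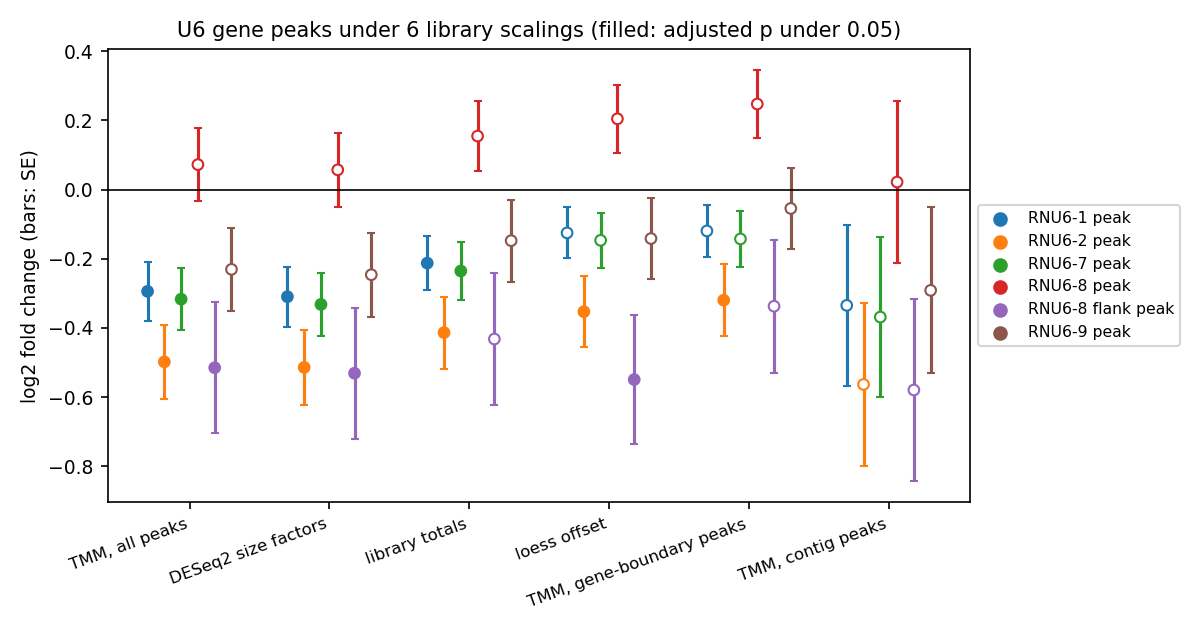
EdgeR log2 fold change of the U6 peaks under each library scaling tried, filled where called, with SE bars. RNU6-2 lies below 0 under each scaling, and RNU6-1 moves from -0.29 with TMM factors to -0.12 with factors from gene-end peaks.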

How the data were processed

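Omni-ATAC-seq counts of 4 vehicle and 4 sorbitol HEK293 libraries were used. The authors deposited 1 table of raw counts per shared peak and library, all whole numbers. Per the submitters' processing notes, the tools included Trim Galore 0.6.10, BWA 0.7.17, SAMtools 1.22, MACS2 2.2.9.1 and deepTools 3.5.4, and the builds named are hg38 and GRCh38. Whether reads or fragments were counted, how peaks were merged and how the transposase offset was treated are not given in the sources used here. Column names gave group and replicate, and 0 sample columns were unmapped. Starts were taken as 0-based and printed with 1 added.

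Peaks were filtered with filterByExpr (minimum count 10, total 15) and tested in R 4.3.3 with edgeR 4.0.16, TMM factors, treatment as the only term and Benjamini-Hochberg adjustment over all 129487 peaks. Loci were tested as sums of their peaks in the same fit. Permutation tests used scipy 1.17.1. On simulated counts for the sorbitol comparison over 129432 peaks, 200 peaks drawn at random over all strengths were changed. Of these, edgeR recovered 19 of 100 changes of 0.5 and 55 of 100 of 1 on the log2 scale, with 0 false calls. In the data far more peaks were called (37717) and most U6 peaks were strong, so these shares are not rates for the U6 peaks. Promoter windows came from RefSeq, GRCh38.p14.

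All U6 peaks are named. Others named are at most 3 called peaks per list and direction with the smallest p, the 5 most correlated peaks and the nearest outside peaks. Members and lists were chosen with earlier results of these data known. Replicate numbers were taken not to pair libraries: same-numbered libraries had correlations of deviations of 5.59e-05, 0.00768, -0.0338 and -0.148. Alternatives were other scalings, DESeq2 1.42.0, filters, windows, blocks, a threshold of 0.01 and leaving out libraries.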

Additional observations from a re-analysis of the deposited data

Results flagged for a closer look

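Over 58 groups of 4 libraries, 3 had a library far from the other 3, where chance flags about 1 in 20 groups, or 2.9 here. For RNU6-8 over RNU6-9, vehicle replicate 3 had a ratio of 1.53, and the other vehicle libraries had 1.36 to 1.39. For RNU6-8 over RN7SK, vehicle replicate 1 had a ratio of 0.203 against 0.168 to 0.172 in the other vehicle libraries. For RNU6-8 over RN7SK, sorbitol replicate 3 had a ratio of 0.195 against 0.257 to 0.263 in the other sorbitol libraries. In that library the RNU6-8 peak had 15.7 CPM, its lowest value.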

How the results depend on the processing

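The U6 calls changed with scaling. With the loess offset, RNU6-1 had -0.13 (edgeR adjusted p = 0.208), the RNU6-7 and RNU6-8 locus turned to 0.00035, and 2 peaks and 1 locus were lower. With gene-end factors, RNU6-1 had -0.12, 1 peak and 1 locus were lower, the U6 sum changed by -0.10, and 34038 peaks were higher and 8670 lower. With contig factors, RNU6-1 had -0.33 and RNU6-2 -0.56, 0 peaks and 0 loci were lower, and 14352 peaks were called, 9119 higher and 5233 lower. Higher peaks made up 54.9% of calls with TMM, 67.4% with library totals, 79.7% with gene-end factors and 63.5% with contig factors. With a mean of at least 50 counts, 21406 peaks were called, 10312 higher and 11094 lower. At a threshold of 0.01, 23272 were called, 12239 higher and 11033 lower, beside 37717 called, 20701 higher and 17016 lower, at 0.05. Lower peaks of the promoter factor, RNA polymerase III and U6 maturation lists went from 12, 12 and 16 to 5, 9 and 7 with gene-end factors, 6, 11 and 9 with loess and 3, 6 and 5 with contig factors. Higher peaks of these lists, 0 in each with TMM, numbered 1, 2 and 3 with gene-end factors. With loess they numbered 1, 2 and 1, and with contig factors 0 in each. The cause of these shifts was not tested.

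Within the first number 2, with 2 libraries a group, RNU6-1 had -0.29 and RNU6-2 -0.23, 0 U6 peaks (3 at an unadjusted p under 0.05 in edgeR) and 0 loci were lower, and 10540 peaks were called, 5338 higher and 5202 lower. Within the first number 1, 12159 peaks were higher. These splits, and leaving out vehicle replicate 4 with sorbitol replicate 4, were chosen after seeing the data. Without those 2 libraries the RNU6-7 and RNU6-8 locus had -0.29 (edgeR adjusted p = 0.0029) and the RNU6-8 peak -0.026.

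With single libraries left out, values ran from -0.33 to -0.25 for RNU6-1, -0.59 to -0.39 for RNU6-2, -0.26 to -0.14 for the RNU6-7 and RNU6-8 locus, 0.0091 to 0.17 for the RNU6-8 peak and -0.35 to -0.15 for RNU6-9. There were 3 to 4 lower U6 peaks, 2 to 4 lower loci, 30555 to 38658 called peaks (16679 to 21135 higher, 13876 to 17523 lower) and -0.33 to -0.22 for the U6 sum. All 4 loci were lower without sorbitol replicate 2.

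The replicate block left RNU6-1 at -0.29 (edgeR adjusted p = 0.0135), RNU6-2 at -0.48, RNU6-7 at -0.32 and the flank peak at -0.52, with 34444 peaks called, and changed no U6 call. The numbers are not shown to pair the libraries. RNU6-1 kept its side of the threshold under 20 of 24 alternatives and RNU6-2 under 22 of 24. A 250 bp window splits the RNU6-7 and RNU6-8 locus, and the U6 sum was not computed for loess, DESeq2, block or filter settings. Depth limits the flank peak most, at 33 to 85 counts.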
